A study of Mus musculus with 8 samples.

Results

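Il9, Csf2 and Il3 are 3 of the 22075 genes listed for cultured mouse lung group 2 innate lymphoid cells (ILC2s), and they were taken by gene name. They were chosen by their FPKM in earlier results of these same data, which placed them higher in STAT3-KO than in WT cells given IL-33. Their own levels in the 4 groups are therefore given as a description, with no p-value, and tests are kept for genes that are not members. ILC2s were purified from the lungs of C57BL/6 mice that had inhaled the protease allergen papain for a short time. WT cells came from Stat3fl/fl mice without Cre, and STAT3-KO cells from VavicreStat3fl/fl mice, in which the Vav promoter drives Cre in blood cells. The floxed alleles are thus shared by both genotypes, and loss of STAT3 cannot be told apart from the presence of Cre. IL-2 at 10 ng/ml expanded all cells over some 5 days. IL-33, also at 10 ng/ml, was then given to the stimulated groups for a further 2 days, and the labels do not describe the medium of the control groups over that time. Genotype and IL-33 thus make 4 groups, each of 2 libraries. The labels do not say whether these came from separate mice or cultures, so p-values measure only the spread between these libraries, which may be technical.

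IL-9, GM-CSF (the product of Csf2) and IL-3 are secreted cytokines of activated lymphocytes. IL-9 acts on mast cells, epithelium and ILC2s themselves through a receptor made of Il9r and the common gamma chain Il2rg. GM-CSF and IL-3 support granulocytes, macrophages, mast cells and basophils, and each signals through its own alpha chain (Csf2ra or Il3ra) joined to a beta chain (Csf2rb, or in mice also Csf2rb2 for IL-3). Their genes are switched on by antigen receptor or alarmin signals through factors such as NF-kB, NFAT and AP-1, and their mRNAs are known for rapid decay.

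Il9 (ENSMUSG00000021538) lies on the minus strand of GRCm38 chromosome 13, from 56479277 to 56482246. Csf2 (ENSMUSG00000018916) and Il3 (ENSMUSG00000018914) lie on the minus strand of chromosome 11, from 54247271 to 54249667 and from 54265303 to 54267277, with 15.6 kb between them. Il5, Il13 and Il4 lie further along the same chromosome, 522, 613 and 629 kb from Csf2. The 250 bases before the RefSeq start of each member (GRCm38.p6) are shown because the 3 genes were high in the same group, and a reader may want to compare the letters. Capitals mark matches on either strand to any of 7 motifs: STAT (TTCNNNGAA), STAT6 (the same ends with 1 more base between them), AP-1 (TGA and TCA with 1 base between), GATA (GATAA), NFAT core (GGAAA), NF-kB (GGGA and TTCC with 2 bases between) and IRF (GAAA repeated after 2 bases). Each runs 5′ to 3′ on the minus strand, and together they cover chr13:56482258-56482507, chr11:54249900-54250149 and chr11:54267280-54267529.
Il9: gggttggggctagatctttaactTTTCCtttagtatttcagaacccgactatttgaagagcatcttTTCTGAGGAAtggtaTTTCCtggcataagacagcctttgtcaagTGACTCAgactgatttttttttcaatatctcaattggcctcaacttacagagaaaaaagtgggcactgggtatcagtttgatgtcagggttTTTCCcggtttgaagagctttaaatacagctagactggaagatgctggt
Csf2: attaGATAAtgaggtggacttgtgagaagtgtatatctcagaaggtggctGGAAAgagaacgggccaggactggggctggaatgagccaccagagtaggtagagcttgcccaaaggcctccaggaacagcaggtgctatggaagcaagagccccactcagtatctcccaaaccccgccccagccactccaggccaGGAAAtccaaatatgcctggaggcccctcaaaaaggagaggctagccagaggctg
Il3: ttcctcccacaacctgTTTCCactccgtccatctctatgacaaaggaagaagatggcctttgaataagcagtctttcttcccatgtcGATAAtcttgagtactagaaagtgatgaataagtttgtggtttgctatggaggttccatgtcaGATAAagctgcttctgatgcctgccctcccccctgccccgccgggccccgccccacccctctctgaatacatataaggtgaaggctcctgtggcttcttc

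The Il9 window held 1 match each to the STAT6 and AP-1 letters, TTCTGAGGAA and TGACTCA, which ended 175 and 134 bases before the start. Among 32817 such windows of the same length, 5.85% held the STAT6 letters and 6.75% the AP-1 letters. The windows of Csf2 and Il3 held neither, but 1 and 2 matches to the GATA letters, which 22.6% of windows held. All 3 windows held the NFAT core (3, 2 and 1 matches), as did 55.6% of windows. The STAT, NF-kB and IRF letters were in none of the 3 windows, and 7.01%, 1.21% and 2.97% of all windows held them. A match is a run of letters only. RefSeq starts Csf2 232 bases upstream of its start in GENCODE, so the window printed for Csf2 lies before that stretch.

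In the 3′ untranslated region, Csf2 held the AU-rich pentamer ATTTA 9 times within 317 bases, and 5 of these copies overlap in 1 stretch, printed here because Csf2 is a textbook AU-rich mRNA.
Csf2 AU-rich stretch: ATTTATTTATTTATTTATTTA

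Of 1911 genes whose 3′ untranslated regions have a similar length, 0.0523% held as many copies of ATTTA, a share that Csf2 itself makes up. Il9 held 3 copies in 86 bases, and 0.323% of 619 regions of similar length held as many. Il3 held 1 copy in the 101 bases of the GENCODE model, and 14.1% of 782 such regions held at least 1. The regions of Il9 and Il3 are likewise counted in their own shares. RefSeq extends Il3 by a further 218 bases at that end, which were not searched.

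Il9 was the member with the widest range. It was listed at 0 FPKM (fragments per kilobase of transcript, divided by library size) in both WT control libraries, where 3 reads would correspond to 0.334 and 0.353 FPKM. STAT3-KO control libraries measured 0.222 and 0.116 FPKM, which are 2 reads and 1 read. WT libraries with IL-33 measured 1.78 and 0.802 FPKM (19 and 7 reads), and STAT3-KO libraries with IL-33 measured 294.8 and 220.4 FPKM (2576 and 2099 reads). Only the last group was far from 0, and no library of it came near any other library. In bulk RNA, fewer cells making a transcript and less transcript per cell cannot be told apart.

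With IL-33, mean Il9 was 258 ± 52.6 FPKM (SD, n = 2) in STAT3-KO against 1.29 ± 0.692 in WT cells, a ratio of 199 with a 95% counting interval of 130 to 293. This interval comes from the exact binomial method and covers counting error only, as do all read-based intervals here. Within STAT3-KO cells the level with IL-33 was 1523 times that of control, but only 3 control reads stand behind this ratio, and its counting interval runs from 514 to 7290. Within WT cells the mean with IL-33 was 3.76 times the level of 3 reads per control library, a ratio that leaves out counting error. On the log2(FPKM + 1) scale the STAT3-KO minus WT difference with IL-33 was 6.84, the highest of 11877 genes compared. In the ranking by FPKM, Il9 given IL-33 was the 165th and 230th of 22075 genes in STAT3-KO cells, and the 8747th and 10551st in WT cells.

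Csf2, by contrast, was measured in every library. WT control libraries held 15.4 and 13.96 FPKM (207 and 177 reads) and WT libraries with IL-33 held 20.9 and 20.2 FPKM (333 and 263 reads). STAT3-KO control libraries held 24.3 and 21.0 FPKM (327 and 269 reads) and STAT3-KO libraries with IL-33 held 147 and 124 FPKM (1919 and 1762 reads). By mean, WT control came lowest, followed by stimulated WT, then STAT3-KO control, then stimulated STAT3-KO cells. The middle groups were separated by 0.0466 FPKM between their nearest libraries, and their means (20.6 ± 0.505 and 22.6 ± 2.37, SD, n = 2) differed by less than the SD of STAT3-KO control. Csf2 was 6.59 times higher in STAT3-KO than in WT cells with IL-33 (counting interval 6.01 to 7.16) and 1.54 times higher in control (1.35 to 1.76). The ratio of IL-33 to control was 5.99 in STAT3-KO cells (5.46 to 6.51) and 1.40 in WT cells (1.23 to 1.60).

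An antisense gene model limits the reading of Csf2. Gm12223 lies on the plus strand from 54247600 to 54254495 and overlaps Csf2, and the sources used here do not say whether reads were counted by strand. Without strand, reads of the pair cannot be told apart. Gm12223 itself measured 1.62 and 2.56 FPKM in WT and 14.2 and 13.96 FPKM in STAT3-KO libraries with IL-33, well below Csf2 in each of them.

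Il3 was scarce throughout. It was listed at 0 in all 4 control libraries and in 1 WT library with IL-33, while the other WT library with IL-33 held 0.319 FPKM (4 reads). STAT3-KO libraries with IL-33 held 2.83 and 1.43 FPKM (29 and 16 reads), so that both lay above every other library but on few reads. The STAT3-KO to WT ratio with IL-33 was 13.3, with a counting interval of 4.36 to 45.7. Within STAT3-KO cells mean Il3 with IL-33 was 7.33 times the level of 3 reads per control library, a ratio that leaves out counting error. Within WT cells no ratio is given because the values were at or near that level. Control cells of both genotypes were at 0.

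All 3 members passed the filter of at least 1 FPKM in at least 2 libraries. Csf2 passed in all 8 libraries, Il9 in 3 (both STAT3-KO libraries and 1 WT library with IL-33), and Il3 only through the 2 libraries of stimulated STAT3-KO cells, so passing is no support for a difference in Il3 or Il9. For each member both STAT3-KO libraries with IL-33 lay above both WT libraries with IL-33. The members were chosen by this contrast, and the share of all genes with that order was not counted. By limma's call, a stricter measure (adjusted p under 0.05), 32.6% of the 11877 genes tested differed in it, and 16.3% were higher. The STAT3-KO response to IL-33 minus the WT response, on the log2(FPKM + 1) scale, was 6.61 for Il9, 2.07 for Csf2 and 1.41 for Il3. For Il3 it was 3.37 with a pseudocount of 0.1, and without either STAT3-KO library with IL-33 the gene no longer passed the filter.

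**Figure D1:**
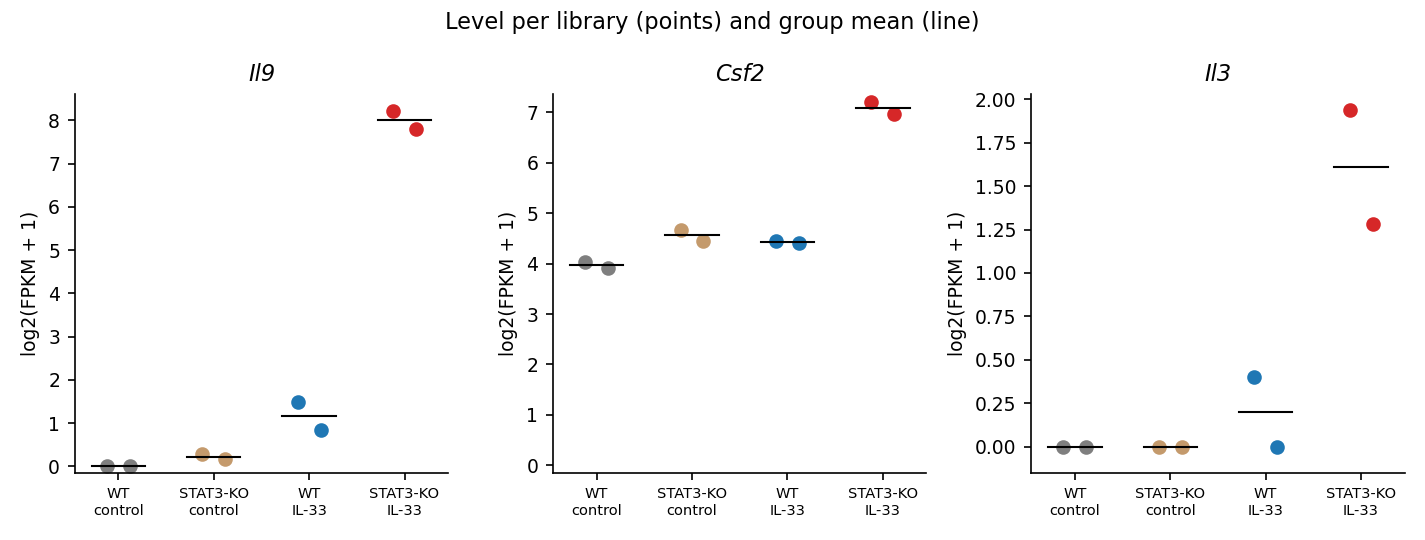
Level of Il9, Csf2 and Il3 in each library, as log2(FPKM + 1) on the vertical axis (a different scale in each panel), by group; points are libraries (2 per group) and lines are group means. STAT3-KO libraries with IL-33 are the highest for all 3 genes, and Il3 stays below 3 FPKM.

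How these genes stood beside the main type 2 cytokines depended on the group. Il5, which drives eosinophil growth, and Il13, which drives mucus production, are the hallmark cytokines of ILC2s, and FPKM values are per length and can be set side by side. In WT control libraries the 3 members made up 18.3% and 15.9% of the summed FPKM of the 5 genes, nearly all of it Csf2. In STAT3-KO control libraries they made up 20.5% and 18.9%.

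With IL-33 the share was 0.408% and 0.339% in WT and 20.3% and 19.3% in STAT3-KO cells. The groups with the low share are thus the WT libraries with IL-33, where Il5 was 3602 and 3398 FPKM and Il13 2021 and 2783 FPKM. In STAT3-KO libraries with IL-33, Il5 was 1023 and 818 FPKM and Il13 720 and 625 FPKM. Il9 reached 28.8% and 26.9% of Il5 there, against 0.0494% and 0.0236% in WT. Csf2 reached 14.4% and 15.1% of Il5, against 0.581% and 0.594% in WT. The share in STAT3-KO cells with IL-33 was close to that in control cells, but its content was not. Il9 supplied 13.5% and 12.3% of the 5-gene sum and Csf2 6.73% and 6.93%, whereas Csf2 alone supplied 20.3% and 18.8% in STAT3-KO control. Among 22 cytokine genes, the members and those of a fixed list, Il9 was the 4th most abundant in both STAT3-KO libraries with IL-33. It was the 12th and 14th in the WT libraries with IL-33. The list does not hold every cytokine gene: the lymphotoxin gene Lta, left off it, measured 600 and 542 FPKM in STAT3-KO libraries with IL-33, above Il9.

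**Figure D2:**
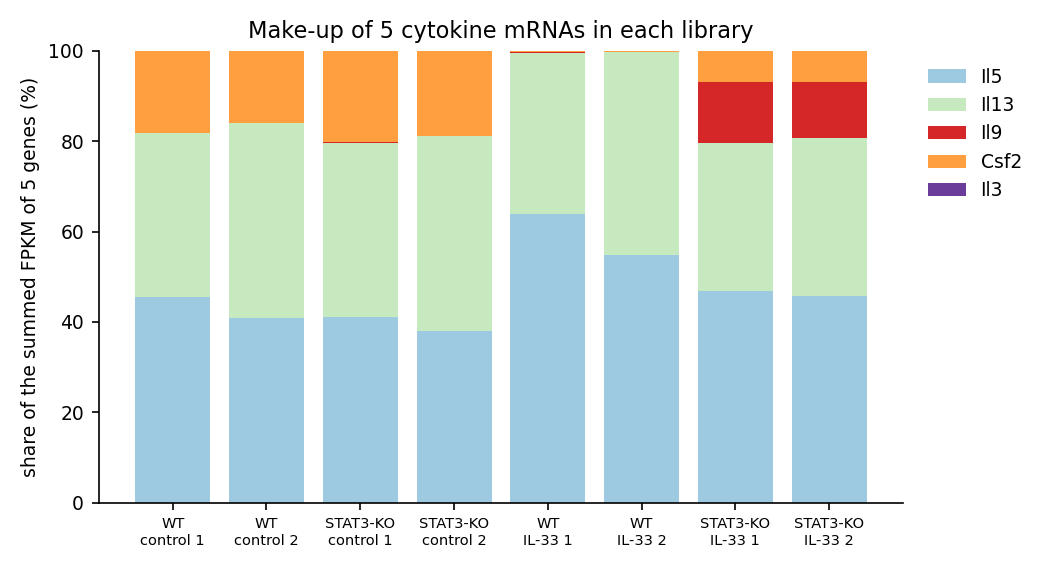
Share of each of 5 genes (Il5, Il13, Il9, Csf2, Il3) in their summed FPKM, in percent on the vertical axis, with 1 bar per library. Il9, Csf2 and Il3 together are 0.408% or less in the WT libraries with IL-33 and 15.9% to 20.5% in all other libraries.

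The other cytokines on the list gave a mixed picture, tested with limma over all genes. Of 13 tested genes of this list, 3 were higher and 6 lower in STAT3-KO than in WT cells with IL-33, with a median of -0.19 (log2) beside 0.01 over all genes. In this comparison 16.3% of all genes were called higher and 16.4% lower. Il5 (-1.93 ± 0.13, SE, adjusted p = 3.24e-05) and Il13 (-1.82 ± 0.16, adjusted p = 0.000138) were lower, as was Il24, an IL-10 family cytokine, at 17.6 FPKM in WT and 3.07 in STAT3-KO cells (-2.20 ± 0.20, adjusted p = 0.000163). Osm, which encodes oncostatin M, measured 243 and 138 FPKM (-0.82 ± 0.11, adjusted p = 0.000815), and Il4 6.03 and 2.66 FPKM (-0.93 ± 0.20, adjusted p = 0.00809). Without 1 WT library with IL-33 (replicate 1) the call for Il4 was lost. The sixth lower gene was the regulatory cytokine Il10 (40.2 and 15.8 FPKM, -1.30 ± 0.23, adjusted p = 0.00319), whose call was lost with a pseudocount of 0.1.

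The 3 that were higher were the inflammatory cytokine Tnf, Lif and Il6. Tnf measured 87.3 and 82.7 FPKM in WT and 131 and 132 in STAT3-KO libraries with IL-33 (0.63 ± 0.12, adjusted p = 0.00443). Lif, a cytokine of the IL-6 family, measured 22.9 and 19.3 FPKM and 35.9 and 38.8 FPKM (0.80 ± 0.13, adjusted p = 0.00195). Il6 measured 4.24 and 3.37 FPKM and 9.17 and 9.27 FPKM (1.10 ± 0.25, adjusted p = 0.012), and its call was lost without WT replicate 2 or either STAT3-KO replicate of the IL-33 groups. Areg, a growth factor of tissue repair, did not pass (704 and 697 FPKM, -0.02 ± 0.32, adjusted p = 0.981). Il10, Tnf, Lif, Il6 and Areg were named after their values were seen.

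The receptors of the 3 cytokines did not share 1 direction. Of 6 receptor genes 5 were tested. With IL-33 1 was higher and 2 lower in STAT3-KO cells, beside 16.3% and 16.4% of all genes. Il9r, the specific chain for IL-9, measured 10.6 and 13.996 FPKM in WT and 6.34 and 6.11 FPKM in STAT3-KO libraries with IL-33 (-0.87 ± 0.17, adjusted p = 0.0052). It fell with IL-33 within STAT3-KO cells (-0.88 ± 0.17, adjusted p = 0.00305) and measured 12.7 and 12.3 FPKM in WT control and WT with IL-33 (adjusted p = 0.82). The difference between these responses was -0.82 and missed the threshold (adjusted p = 0.051).

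Csf2ra, the alpha chain for GM-CSF, measured 3.59 and 5.98 FPKM in WT and 10.1 and 18.3 FPKM in STAT3-KO libraries with IL-33. The groups did not overlap (1.37 ± 0.32, adjusted p = 0.0127), but the call was lost without WT replicate 1 or STAT3-KO replicate 2 of the IL-33 groups, and without a filter on low values. Il3ra, the alpha chain for IL-3, measured 15.5 and 22.3 FPKM in WT and 10.5 and 10.8 FPKM in STAT3-KO libraries with IL-33 (-0.75 ± 0.19, adjusted p = 0.0184). Its call was lost without WT replicate 2 or either STAT3-KO replicate of the IL-33 groups, and without a filter on low values.

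Csf2rb, the shared beta chain, rose with IL-33 in both genotypes, from 0.705 to 7.68 FPKM in WT (2.35, adjusted p = 7.36e-05) and from 0.957 to 8.77 FPKM in STAT3-KO cells (2.31, adjusted p = 5.06e-05). With IL-33 the genotypes differed by 0.16 ± 0.20 (adjusted p = 0.586). Csf2rb2, the mouse beta chain specific for IL-3, stayed below 1.1 FPKM in every library and was not tested. These chains are close paralogs whose reads can be shared, which leaves their split uncertain. Il2rg, the common gamma chain, was abundant, at 230 and 210 FPKM with IL-33 in WT and STAT3-KO cells (-0.14 ± 0.14, adjusted p = 0.459). For comparison, 36.1% of all genes were called with IL-33 in WT cells (14.5% higher, 21.6% lower) and 51% in STAT3-KO cells (20.4% and 30.6%). Between genotypes in control 0.463% were called (0.253% higher and 0.21% lower in STAT3-KO). For the difference between responses 15.1% were called (6.72% higher and 8.43% lower).

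Genes of signalling below these receptors, JAK kinases, STAT factors and their targets, were called at 11 of 18, with 5 higher and 6 lower in STAT3-KO cells with IL-33 (median -0.18). Over all genes 32.6% were called, 16.3% higher and 16.4% lower, with a median of 0.01. Stat3 itself, the deleted gene, measured 48.98 and 55.3 FPKM in WT and 8.03 and 9.69 FPKM in STAT3-KO libraries with IL-33, and each STAT3-KO library of the study lay below each WT library. Socs3, a feedback inhibitor induced by STAT3, measured 167 and 191 against 14.9 and 16.4 FPKM (-3.43 ± 0.15, adjusted p = 4.79e-06). Jak1, the kinase bound to many cytokine receptors, measured 109 and 109 against 30.6 and 36.2 FPKM (-1.68 ± 0.15, adjusted p = 0.000131). The survival gene Bcl2l1 was higher in STAT3-KO cells (101 and 114 against 278 and 312 FPKM, 1.45 ± 0.11, adjusted p = 7.41e-05).

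Stat5a and Stat5b, the STAT factors that IL-2, IL-3, GM-CSF and IL-9 receptors share, were both higher in STAT3-KO cells with IL-33. Stat5a measured 12.4 and 12.7 FPKM in WT and 26.2 and 29.6 FPKM in STAT3-KO libraries (1.09 ± 0.16, adjusted p = 0.00128). Stat5b measured 8.79 and 7.95 against 14.7 and 18.4 FPKM (0.90 ± 0.16, adjusted p = 0.00336). The difference between IL-33 responses was 1.08 for Stat5a (adjusted p = 0.0147) and 1.10 for Stat5b (adjusted p = 0.0144). Both genes were named after their values were seen. On chromosome 11 Stat5a (100859351 to 100885169) overlaps the floxed Stat3 (100885098 to 100939540), and Stat5b lies beside Stat5a. The part of this position in their levels was not tested.

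Upstream, the IL-33 receptor and its signalling chain had 2 of 17 genes higher and 3 lower in STAT3-KO cells with IL-33 (median -0.02). These 5 of 17 are near the 32.6% called over all genes, so the count says nothing particular about the list. Il1rl1, the IL-33 receptor, measured 350 and 370 FPKM in WT and 78.5 and 92.4 FPKM in STAT3-KO libraries (-2.06 ± 0.24, adjusted p = 0.000445). The kinase Irak4 (8.34 and 3.53 FPKM, -1.04 ± 0.14, adjusted p = 0.000896) and the ubiquitin ligase Traf6 (3.604 and 1.11 FPKM, -1.12 ± 0.21, adjusted p = 0.00401) were lower as well. Nfkbia, the NF-kB inhibitor that NF-kB itself induces, was higher (561 and 834 FPKM, 0.57 ± 0.11, adjusted p = 0.00644). The group with the highest Il9 and Csf2 thus held the lowest mean Il1rl1 mRNA.

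Transcription factors reported to act on Il9 had 8 of 27 tested genes higher and 7 lower in STAT3-KO cells with IL-33 (median 0.04), beside 16.3% and 16.4% of all genes and a median of 0.01. Etv5, an ETS factor, measured 6.40 and 11.7 FPKM in WT and STAT3-KO control cells and 47.8 and 150 FPKM with IL-33 (1.63 ± 0.13 between genotypes with IL-33, adjusted p = 8.59e-05). The AP-1 factor Batf3 measured 4.28 and 5.16 FPKM in WT and 15.6 and 12.7 FPKM in STAT3-KO libraries with IL-33 (1.40 ± 0.23, adjusted p = 0.00245), and the call was lost with a pseudocount of 0.1. Irf4, which works with BATF at shared sites, measured 27.6 and 23.5 against 39.4 and 62.4 FPKM (0.93 ± 0.21, adjusted p = 0.0107), a call lost without WT replicate 2 of the IL-33 group. In control Irf4 measured 6.33 and 7.72 FPKM in WT and 13.7 and 13.1 FPKM in STAT3-KO libraries (0.85, limma adjusted p = 0.178). Its difference between responses was 0.08 (limma adjusted p = 0.878).

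Batf and Pparg, of the same list, did not differ between genotypes with IL-33 beyond the spread. Batf, which rose with IL-33 in WT and STAT3-KO cells, measured 66.5 and 62.2 FPKM in WT and 86.3 and 60.9 FPKM in STAT3-KO libraries (0.17 ± 0.16, adjusted p = 0.45). Pparg, a nuclear receptor that ILC2s express, measured 314 and 303 FPKM (-0.05 ± 0.11, adjusted p = 0.793). Spi1, which encodes PU.1, a factor known from IL-9 producing T cells, was too low to be tested. It was listed at 0 in 3 groups and averaged 0.0186 FPKM in WT cells with IL-33. Irf4, Batf, Batf3 and Pparg were named after their values were seen.

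The lower genes of this list included Ets1, Id3 and Hif1a. Ets1 measured 76.9 and 68.7 FPKM in WT and 9.26 and 11.5 FPKM in STAT3-KO libraries with IL-33 (-2.70 ± 0.12, adjusted p = 6.47e-06). Id3, an inhibitor of E proteins, measured 34.5 and 39.5 against 4.21 and 1.73 FPKM (-3.33 ± 0.26, adjusted p = 7.15e-05). Hif1a, the hypoxia-inducible factor, measured 184 and 183 against 18.6 and 33.8 FPKM (-2.82 ± 0.24, adjusted p = 0.000112). Hif1a moved in opposite directions with IL-33, up in WT (1.38, adjusted p = 0.00327) and down in STAT3-KO cells (-1.51, adjusted p = 0.00129), and the difference between responses was -2.89 (adjusted p = 0.00196).

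Factors reported to act on Csf2 and Il3 had 0 of 18 tested genes higher and 8 lower in STAT3-KO cells with IL-33. Their median was -0.56 beside 0.01 over all genes, and 16.4% of all genes were called lower. Ikzf1 (45.0 and 11.3 FPKM, -1.90 ± 0.16, adjusted p = 0.00011) and Ikzf3 (10.3 and 1.98 FPKM, -1.93 ± 0.18, adjusted p = 0.00017), zinc finger factors of the Ikaros family, were among them. Ets1, which both lists hold, and the lineage factor Gata3 (285 and 173 FPKM, -0.72 ± 0.08, adjusted p = 0.00038) were others. Nfkb1, which encodes the NF-kB subunit p50 and was named after its values were seen, measured 31.6 and 34.4 against 14.3 and 17.4 FPKM (-1.02 ± 0.12, adjusted p = 0.00054). The NF-kB subunit genes did not share 1 direction. Nfkb2, of the Il9 list, was higher in STAT3-KO cells (73.5 and 75.9 against 141 and 150 FPKM, 0.95 ± 0.10, adjusted p = 0.000232). Rel, Rela and Relb did not pass. Junb, an AP-1 subunit, rose with IL-33 in both genotypes and measured 447 FPKM in WT and 450 FPKM in STAT3-KO cells (0.01 ± 0.11, adjusted p = 0.938). Nfkb2 and Junb were also named after their values were seen.

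A list of genes linked to the turnover of AU-rich mRNAs, such as those with the Csf2 stretch printed above, had 1 of 14 genes higher and 2 lower in STAT3-KO cells with IL-33 (median -0.13), beside 16.3% and 16.4% of all genes. The list is mixed: it also holds Elavl1 and Ybx1, known to stabilise mRNAs, and Tnfaip3, an inhibitor of NF-kB signalling, none of which was called. Zc3h12a, which encodes the endonuclease Regnase-1, measured 13.1 and 19.3 FPKM in WT and 2.85 and 2.42 FPKM in STAT3-KO libraries with IL-33 (-2.22 ± 0.25, adjusted p = 0.000437). It rose with IL-33 in WT from 1.498 to 16.2 FPKM (2.77, adjusted p = 0.000107), whereas it measured 2.29 and 2.64 FPKM in STAT3-KO cells (0.16, adjusted p = 0.624), and the difference between responses was -2.61 (adjusted p = 0.00335). Zfp36, which encodes the AU-rich element binding protein tristetraprolin, measured 24.7 and 23.9 against 10.0 and 14.8 FPKM (-0.94 ± 0.17, adjusted p = 0.00395). Zfp36l2, a relative, was the higher one at 15.9 and 21.8 FPKM (0.43 ± 0.12, adjusted p = 0.0215), a call lost when any 1 of the IL-33 libraries was left out.

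**Figure D3:**
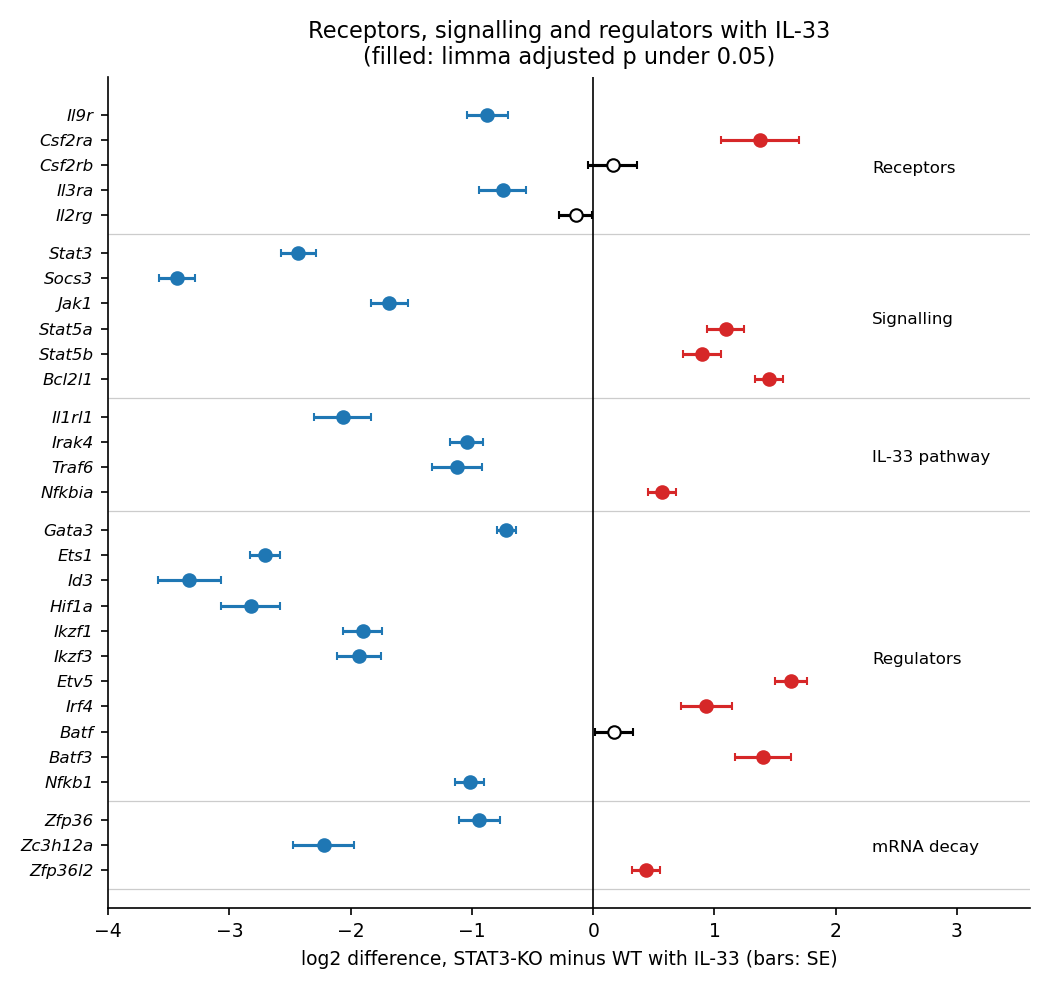
Difference of log2(FPKM + 1) between STAT3-KO and WT cells with IL-33 (horizontal axis; bars are SE, 2 libraries per group) for receptors, signalling genes and regulators; filled points passed limma's adjusted p of 0.05, red higher and blue lower, and open points did not pass. Csf2ra, Stat5a, Stat5b, Bcl2l1, Nfkbia, Etv5, Irf4, Batf3 and Zfp36l2 lie to the right, and Id3 and Socs3 lie furthest to the left.

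Neighbouring genes were looked at by position. In the cytokine block on chromosome 11, 9 listed neighbours of Csf2 and Il3 were tested. Of these, 2 were higher and 4 lower in STAT3-KO cells with IL-33, beside 16.3% and 16.4% of all genes. The lower ones were Il5, Il13, Il4 and Rad50, and the higher ones were P4ha2 and Irf1. Il5, Il13 and Il4 were also counted among the other cytokines above. P4ha2, a collagen prolyl hydroxylase gene 116 kb from Csf2, measured 0.837 and 0.532 FPKM in WT and 5.58 and 4.46 FPKM in STAT3-KO libraries with IL-33 (1.84 ± 0.21, adjusted p = 0.000458). It did not respond to IL-33 by a called amount in WT (adjusted p = 0.684) but rose in STAT3-KO cells (1.60, adjusted p = 0.00045), and the difference between responses was 1.72 (adjusted p = 0.00832). Around Il9 only 2 listed neighbours were tested. The F-box gene Fbxl21, 40.2 kb from Il9, was higher in STAT3-KO cells with IL-33 (0.0157 and 0.878 FPKM, 0.88 ± 0.21, adjusted p = 0.0147) but lower than in control in both genotypes. Its call was lost without either WT replicate or STAT3-KO replicate 2 of the IL-33 groups.

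A window of 200 kb on each side, chosen after the values were seen, held 9 genes around Csf2 and Il3 that are not members. Of these, 7 were tested, 4 were higher in STAT3-KO cells with IL-33 and 0 were lower, beside 16.3% and 16.4% over all genes. They were P4ha2, Gm12223, the noncoding 4933405E24Rik and Gm12222. Gm12222 lies on the plus strand within the span of 4933405E24Rik, which is on the minus strand. As with Gm12223 and Csf2, their reads may not be told apart without strand, so the 4 may not be separate signals. Gm12223, the model that overlaps Csf2, differed by 2.303 ± 0.31 (adjusted p = 0.000999). 4933405E24Rik measured 0.233 and 0.399 FPKM in WT and 3.98 and 2.04 FPKM in STAT3-KO libraries with IL-33 (1.57 ± 0.30, adjusted p = 0.005). It was higher in control, at 3.76 and 2.11 FPKM in WT and 8.83 and 6.88 FPKM in STAT3-KO, and fell with IL-33 in both genotypes (-1.55, adjusted p = 0.00484, and -1.18, adjusted p = 0.0113). Its difference between responses was 0.37 (adjusted p = 0.59). Gm12222 rests on 0 reads in both WT libraries and on 46 and 7 reads in stimulated STAT3-KO cells, and its call (adjusted p = 0.0411) was lost in 7 of 14 alternatives. STAT3-KO control held 31 and 24 reads of it, and its difference between responses was 0.63 (adjusted p = 0.738). Neither 4933405E24Rik nor Gm12222 was higher with IL-33 than in control by a called amount in STAT3-KO cells. Fnip1, 171 kb from Il3, did not pass (-0.30 ± 0.19, adjusted p = 0.269).

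**Figure D4:**
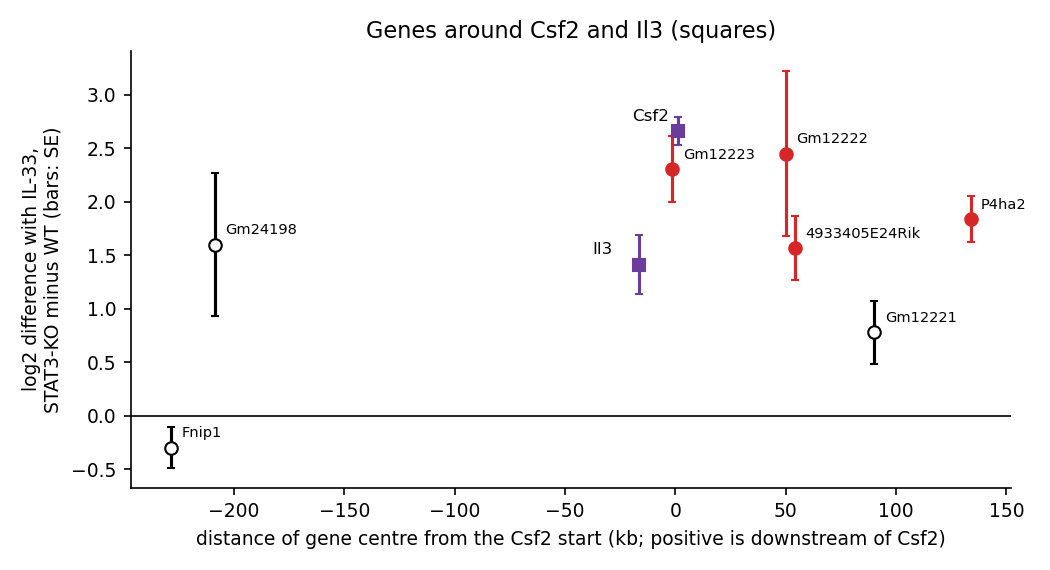
Genes within 200 kb of Csf2 or Il3: difference of log2(FPKM + 1) between STAT3-KO and WT cells with IL-33 (vertical axis; bars are SE, 2 libraries per group) by distance of the gene centre from the Csf2 start in kb (horizontal axis). Squares are Csf2 and Il3, filled circles passed limma's adjusted p of 0.05 and open circles did not; only Fnip1 lies below 0.

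**Figure D5:**
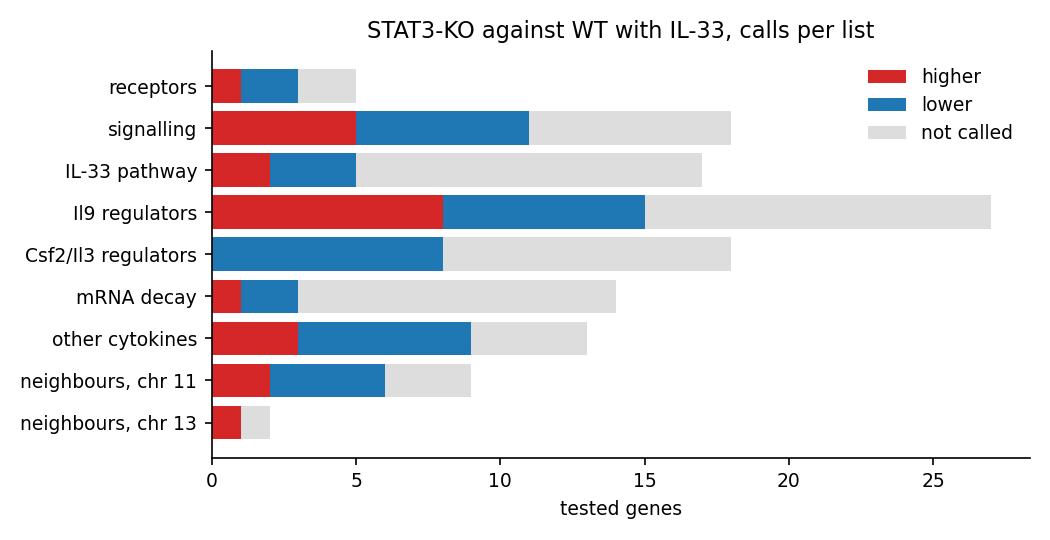
Number of tested genes in each of 9 lists that limma called higher (red) or lower (blue) in STAT3-KO than in WT cells with IL-33, or did not call (grey). The list of Csf2 and Il3 regulators has 0 higher and 8 lower of 18, beside 16.3% and 16.4% of all genes.

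The genes whose pattern was most like each member were found by Pearson's r of log2(FPKM + 1) over the 8 libraries, among genes with a group mean of at least 5 FPKM. The value is a description, since the 8 points form 4 groups and share library depth. Il9 was most like Serpinc1 (antithrombin, r = 0.999, 0.336 and 9.42 FPKM in WT and STAT3-KO cells with IL-33) and the chemokine genes Ccl5 (r = 0.995, 8.10 and 605 FPKM) and Ccl3 (r = 0.994, 1.82 and 133 FPKM). Glud1, glutamate dehydrogenase (r = 0.994), and Wdr61 (r = 0.993) followed.

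Csf2 was most like Lta, the gene of lymphotoxin alpha, which is of the TNF family (r = 0.998). Lta measured 81.2 and 75.1 FPKM in WT control, 119 and 109 in STAT3-KO control, 125 and 105 in WT with IL-33 and 600 and 542 in STAT3-KO with IL-33. Its order of groups therefore repeats that of Csf2 save for the middle groups, which overlap. Pdrg1 (r = 0.995), the growth factor gene Pdgfa (r = 0.994), Cavin1 (r = 0.994) and Ccl5 (r = 0.993) came next. Cavin1 lies near the deleted gene Stat3 on chromosome 11. Il3, which rests on few reads, was most like Uqcrc2, a subunit of respiratory complex III (r = 0.992), and then Rps20, Rrp9, Eif2b1 and Rpl6, with r of 0.987 to 0.985. Among the members r was 0.985 for Il9 with Csf2, 0.974 for Il9 with Il3 and 0.956 for Csf2 with Il3. The members were chosen as high in the same group, so a high r among them follows from that choice. Genes that are not members, such as Rps20 and Rpl6, had a higher r with Il3 than Il9 or Csf2 did.

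Several facts of the whole series stand beside these results, and the marker genes named singly were picked after their values were seen. Libraries held 15843720 to 19905460 reads. All 11 ILC2 markers were listed, and their summed level was 3005 to 3149 FPKM in WT control, 3014 to 3024 in STAT3-KO control, 3962 to 4136 in WT with IL-33 and 2037 to 2082 in STAT3-KO with IL-33, where Il17rb alone averaged below 1 FPKM. The sum holds Areg and Il2ra, which were far higher with IL-33 than in control. Between genotypes with IL-33, 8 of the 11 markers were called lower in STAT3-KO cells and 0 higher (median -1.25). Over all genes 16.4% were called lower and 16.3% higher, with a median of 0.01. The lower markers included Thy1 (31.7 and 38.0 against 2.56 and 2.37 FPKM) and Il7r (180 and 173 against 69.6 and 78.4 FPKM). The part of this in the members' levels was not tested. Mast cells and T cells can also make IL-9 and IL-3. Of 10 mast cell and basophil markers 4 were listed, and their sum was 330 to 337 FPKM in WT control, 142 to 171 in STAT3-KO control, 136 to 164 in WT with IL-33 and 7.72 to 8.25 in STAT3-KO with IL-33. In WT with IL-33 most of it was Mcpt8 (92.8 and 114 FPKM), and in STAT3-KO with IL-33 it was Cpa3 (7.52 and 7.49 FPKM). The part of such cells in the members' levels was not tested. The 8 T cell markers, all listed, summed to 6.02 to 7.75 FPKM in STAT3-KO and 6.62 to 6.82 FPKM in WT libraries with IL-33. Most of it was Cd3g, at 6.72 and 4.49 FPKM in STAT3-KO and 4.44 and 3.97 FPKM in WT, and Trac, at 0.722 and 1.32 FPKM and at 1.45 and 2.17 FPKM. Cd4, Cd8a, Cd8b1 and Cd5 were at 0 in STAT3-KO with IL-33, and Cd8a and Cd8b1 in WT with IL-33 as well. The part of T cells was not tested. B cell markers (Cd79b and Cd79a) summed to 13.1 to 13.9 FPKM in WT and 19.6 to 21.9 FPKM in STAT3-KO libraries with IL-33, and their part in the result was not tested. Mitochondrial transcripts held 3.33% and 2.31% of all FPKM in WT libraries with IL-33 and 5.55% to 7.13% in the other 6, which was not tested either. NK cell and ILC1 markers, 4 of 5 listed, summed to 3.04 to 4.55 FPKM in WT and 20.2 to 21.2 FPKM in STAT3-KO control, and to 0 to 0.444 and 4.44 to 4.98 FPKM with IL-33. Nearly all of it was Tbx21, which encodes the factor T-bet and was higher in STAT3-KO cells in control (2.23, adjusted p = 0.0078) and with IL-33 (2.19, adjusted p = 0.000238), while Klrb1c and Eomes were at 0 in both IL-33 groups. Their part was not tested. Other marker lists summed in WT and STAT3-KO cells with IL-33 to 0.259 to 0.597 and 0.863 to 1.23 FPKM for ILC3, and 5.87 to 6.78 and 3.23 to 6.74 FPKM for macrophages. Granulocyte markers summed to at most 0.907 FPKM, dendritic cell markers to at most 7.28 and epithelial and stromal markers to at most 29.6 FPKM in any library. With IL-33 in WT cells 1724 genes were called higher and 2561 lower, and rescaling by median of ratios gave 2137 and 2037, with the all-gene median at -0.03 in place of -0.14.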

How the data were processed

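RNA was measured in 8 libraries of total RNA. For each gene and library the deposited table gives FPKM, made by the authors with Bowtie2 and RSEM on GRCm38, per the submitters' processing notes; versions, annotation, filters and strand setting are not given in the sources used here. Of 22075 listed genes 22041 are in GENCODE M21, which gave positions and merged exon lengths. FPKM times length gave whole multiples of 1 step for 93.5% to 94.6% of values of at most 100 reads (within 0.02), and the step gave each library's depth and the reads behind a value. Limma 3.58.1 in R 4.3.3 was fitted to log2(FPKM + 1), a pseudocount of 1, over all 8 libraries, for 11877 genes with at least 1 FPKM in at least 2 libraries. It used 1 mean per group and eBayes with trend; residual degrees of freedom were 4, and those of the prior 4.46 at the median. The 5 comparisons were called at a Benjamini-Hochberg adjusted p of 0.05 over all tested genes, two-sided. Differences are on the log2(FPKM + 1) scale, which understates changes of low genes. The procedure was tested on simulated data. Promoter windows come from RefSeq GRCm38.p6 and matched 3 of 3 members. The matched sequences were read on the gene's strand. Tables and plots were made with pandas 2.3.3, matplotlib 3.10.9 and numpy 2.4.6 under Python 3.11.15.

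The members, 9 gene lists and 10 marker lists were chosen with earlier results of these data known. Named were the members, 5 reference genes (Il5, Il13, Stat3, Gata3 and Il1rl1), all receptors, up to 4 called genes of smallest p per list between stimulated STAT3-KO and WT cells, and the 5 genes most like each member. Unnamed gene models, ribosomal pseudogenes and microRNAs were left out of the latter. Of the gene lists, those of IL-33 signalling, Il9 regulators, Csf2 and Il3 regulators, mRNA decay, receptors, receptor signalling, other cytokines and neighbours (1 for each chromosome) are reported, as are the marker lists of ILC2s, T cells, mast cells and basophils, B cells, NK cells and ILC1, ILC3, macrophages, granulocytes, dendritic cells, and epithelium and stroma. Alternatives were another pseudocount, other filters, median-of-ratios rescaling, fits of only the groups compared, a replicate block and leaving out each library.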

Additional observations from a re-analysis of the deposited data

Results flagged for a closer look

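The response to IL-33 differed between STAT3-KO and WT cells for 28 of the named genes that are not members, by limma's test of the difference itself (adjusted p under 0.05 over all 11877 genes), and 15.1% of all tested genes passed it. Values are the STAT3-KO response minus the WT response on the log2(FPKM + 1) scale. Many of these genes were named because they differed with IL-33, so their number says nothing about the lists. Irf1, Nfkb2 and genes named only as markers are not among the 28.

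Lower responses in STAT3-KO cells were measured for the type 2 cytokines Il5 (-2.22) and Il13 (-2.27), for Il24 (-2.34), Osm (-0.76) and Il10 (-1.12), and for the IL-33 receptor Il1rl1 (-2.32). Signalling genes with lower responses were Stat3 (-0.94), Socs3 (-2.63), Jak1 (-1.82), Irak4 (-1.03) and Traf6 (-1.13). The factors were Gata3 (-0.88), Ets1 (-2.37), Id3 (-3.04), Hif1a (-2.89), Ikzf1 (-1.87), Ikzf3 (-2.07) and Nfkb1 (-0.95), and the mRNA decay genes were Zc3h12a (-2.61) and Zfp36 (-0.90).

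Higher responses were measured for Bcl2l1 (1.12), Etv5 (0.84), Batf3 (1.36), Stat5a (1.08), Stat5b (1.10), Lif (1.10), P4ha2 (1.72) and Gm12223 (1.98). Gm12223 overlaps Csf2, and without a known strand setting its value cannot be told apart from reads of Csf2. The call for Il10 (adjusted p = 0.049) lies at the threshold.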

How the results depend on the processing

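The members kept their direction with IL-33 in every alternative that gave a value, which is no support for it. They were chosen by this contrast, and their WT and STAT3-KO libraries with IL-33 do not overlap. Leaving out a library therefore cannot reverse the direction. With a pseudocount of 0.1 the STAT3-KO minus WT difference moved from 6.84 to 7.61 for Il9 and from 1.41 to 3.37 for Il3 (whose difference between responses moved alike, from 1.41 to 3.37), since both rest on low values in WT. When each library was left out in turn, it ran from 6.52 to 7.15 for Il9, 2.54 to 2.78 for Csf2 and 1.21 to 1.61 for Il3. The Il3 range lacks the 2 STAT3-KO libraries with IL-33, which hold nearly all of its reads: without either, Il3 no longer passes the filter and has no value. A group left with 1 library is then assumed to vary like the others. Over the same omissions the calls ran from 2528 to 4344 with IL-33 in WT (4285 with all libraries), 4245 to 6244 in STAT3-KO (6063), 1 to 43 between genotypes in control (55), 2141 to 4085 between genotypes with IL-33 (3876) and 857 to 2048 for the difference between responses (1799). Calls between genotypes with IL-33 were 2381 and 2141 without WT replicate 1 or 2 and 2530 without STAT3-KO replicate 1 of the IL-33 groups. In control they were 34 with a pseudocount of 0.1 and 7 when only the groups compared were fitted. Without a filter on low values the difference between responses gave 1149 calls. Same-numbered libraries did not deviate together (r of -0.06 to 0.04 over 6 pairs of groups). Such an r cannot show whether they share a mouse, culture or batch, so pairing remains unknown. With a replicate block the calls were 4271, 6015, 37, 3813 and 1827 in the order above. Low reads limit Il3, and Il9 outside STAT3-KO cells with IL-33.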
